A study of Macaca fascicularis with 32 samples.

Results

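The dopaminergic nuclei described here came from the substantia nigra of cynomolgus macaques (Macaca fascicularis) and were picked out among dopaminergic nuclei by their ALDH1A1 transcripts. Members were chosen by their UMI counts (unique molecular identifiers, each standing for 1 captured RNA molecule). A barcode was a member when it held 3000 or more UMIs, 5 or more UMIs of SLC6A3 and SLC18A2 together, and 4 or more UMIs of ALDH1A1. In all, 311 of the 18978 nigral barcodes were members, of 56659 barcodes over the 6 libraries of the series. The library labelled CT gave 218 members and the library labelled PD gave 93.

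The study sampled substantia nigra, putamen and caudate nucleus of animals whose treatment is given as PD or CT, for a monkey model of Parkinson's disease that uses an agent named PAR. The sources used here give no dose, time or age for either group. The labels list 4 PD and 4 CT samples of substantia nigra, but each group arrived as 1 matrix whose barcodes cannot be assigned to those samples. Each matrix was therefore 1 library per group, and treatment, animals and library preparation cannot be told apart. No test between PD and CT was possible, so every interval below is a 95% interval that covers the counting of nuclei or UMIs and nothing else. The genome build named in the submitters' processing notes is human, hg38, while the gene identifiers are those of Macaca fascicularis.

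Midbrain dopaminergic neurons make dopamine from tyrosine through TH and DDC, load it into vesicles through SLC18A2 and take it back up through SLC6A3. ALDH1A1, a cytosolic aldehyde dehydrogenase, oxidises the reactive aldehyde formed from dopamine and also makes retinoic acid. It marks neurons of the ventral tier of the substantia nigra, a tier that also carries the transcription factor SOX6 and is known as the more vulnerable one in Parkinson's disease.

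The nuclei matched the dopaminergic part of their label on genes that the rule did not use. TH was at 54.5 CPM (UMIs per 1000000 UMIs, summed over the members) in CT and 48.2 CPM in PD, and at 0.368 CPM and 1.60 CPM in the other nuclei, meaning those of 3000 or more UMIs with at most 1 UMI of SLC6A3 and SLC18A2 (929 in CT, 759 in PD). SOX6 had at least 1 UMI in 98.2% of CT members and 96.8% of PD members. After every nucleus was thinned to 3000 UMIs, SOX6 was seen in 68.8% and 61.3% of members, in 46.9% and 43.2% of ALDH1A1-low dopaminergic nuclei and in 15.5% and 15.5% of the other nuclei, whose median depths were 4446 and 5071 UMIs before thinning. KCNJ6, which encodes the GIRK2 potassium channel subunit, was at 3790 CPM in CT and 3750 CPM in PD. It was not particular to members, being at 3660 CPM and 3494 CPM in dopaminergic nuclei with 3 ALDH1A1 UMIs, just outside the rule. LMO3, a LIM-domain transcriptional regulator, was at 529.9 CPM and 582 CPM. ALDH1A1 itself, a gene of the rule, was seen in 79.8% and 73.1% of thinned members and in 4.41% and 3.16% of the thinned other nuclei.

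Markers of the dorsal tier and of other transmitter types were low but mostly present. CALB1, a calcium-binding protein of the dorsal tier, was at 2.38 CPM in CT and 5.30 CPM in PD. SLC17A6, the vesicular glutamate transporter VGLUT2, had no UMI in either library, where a count of 0 allows up to 0.794 CPM in CT and 1.77 CPM in PD. The 8 GABAergic markers summed to 42.1 CPM in CT and 25.9 CPM in PD, and to 365 CPM and 407 CPM in the other nuclei. The 6 annotated glutamatergic markers summed to 20.9 CPM and 26.5 CPM. The 6 serotonergic markers summed to 2.65 CPM and 2.35 CPM, and to 4.97 CPM and 7.78 CPM in the other nuclei. ANXA1, a marker of a ventral subtype in mice, had 9 UMIs in CT and 0 in PD, and AGTR1, an angiotensin receptor gene reported for a ventral subtype in humans, had 0 and 1. The 15 dorsal-tier genes summed to 24.9 CPM and 18.8 CPM in members and to 76.2 CPM and 210.0 CPM in ALDH1A1-low nuclei. They summed to 80.8 CPM and 111 CPM in the other nuclei. The 12 annotated genes of the ventral-tier list differed less, at 4701 CPM and 4730 CPM in members and 4287 CPM and 3950 CPM in ALDH1A1-low nuclei.

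Members were few but held much of the RNA counted. They had a median of 16144.5 UMIs in CT (from 3088 to 41017) and 17790 UMIs in PD (from 4178 to 30358), and a median of 4742 and 4920 genes. The libraries totalled 22198570 and 18692617 UMIs, of which members carried 17.0% in CT and 9.09% in PD. The 2 libraries shared 37 barcode sequences, and 2 member barcodes also occurred in the other library. A doublet score above 0.25 was found for 7 CT members and 0 PD members. Oligodendrocyte markers exceeded 1% of the UMIs of 1 CT member and of 0 PD members.

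The ALDH1A1 threshold cut through a continuous distribution. In CT, 27 members held exactly 4 ALDH1A1 UMIs and 29 dopaminergic nuclei just outside the rule held exactly 3. In PD, those numbers were 18 and 20. Nuclei with 3 UMIs had SLC6A3 at 659 CPM in CT and 674.6 CPM in PD, and nuclei with 4 UMIs had it at 661 CPM and 707 CPM. SOX6 was at 299 CPM with 3 UMIs and 333 CPM with 4 in CT, and at 367 CPM with 3 and 366 CPM with 4 in PD. No barcode under 3000 UMIs met the other limits in either library, so the depth limit removed none. Dopaminergic nuclei with no ALDH1A1 UMI numbered 58 in CT and 92 in PD.

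**Figure D1:**
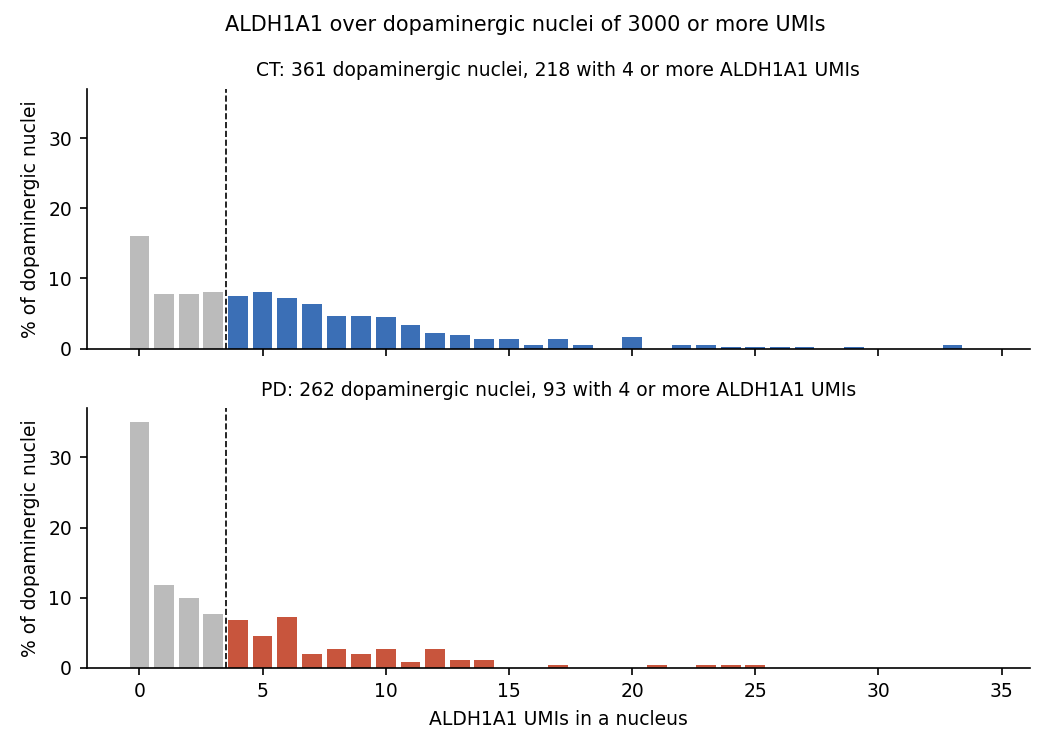
Share of dopaminergic nuclei (y axis, %) at each number of ALDH1A1 UMIs (x axis) in CT (361 nuclei, top) and PD (262 nuclei, bottom); coloured bars are members, grey bars are nuclei below the limit of 4 UMIs (dashed line). The bar at 0 UMIs is taller in PD (92 nuclei) than in CT (58 nuclei), and no gap separates 3 from 4 UMIs.

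The share of ALDH1A1-high nuclei was lower in PD on every denominator. Among dopaminergic nuclei (the same limits without ALDH1A1), members made up 60.4% in CT (218 of 361, Clopper-Pearson interval 55.1 to 65.5) and 35.5% in PD (93 of 262, 29.7 to 41.6). The ratio of PD over CT was 0.588 (0.456 to 0.753). Intervals for ratios of shares, here and below, do not allow for a count being part of its total. They are therefore too wide, most of all for large shares. Among all barcodes of 3000 or more UMIs the share was 16.7% in CT and 8.94% in PD, a ratio of 0.537 (0.417 to 0.688). Among all barcodes it was 2.18% and 1.03%, a ratio of 0.473 (0.367 to 0.606). Because ALDH1A1 chose the members, a lower share can hold fewer nuclei of the type or less ALDH1A1 RNA per nucleus, and these cannot be told apart.

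Dopaminergic nuclei as a whole differed less between the libraries. They were 27.6% of the barcodes of 3000 or more UMIs in CT and 25.2% in PD, a ratio of 0.913 whose interval reached from 0.776 to 1.07. The ALDH1A1-low dopaminergic nuclei (3 or fewer UMIs) numbered 143 of 1309 in CT and 169 of 1040 in PD, which is 10.9% and 16.2%, a ratio of 1.49 (1.18 to 1.87). Those nuclei were shallower than the members, with medians of 11159 UMIs in CT and 12220 UMIs in PD. Within the members, ALDH1A1 was at 541 CPM in CT and 441 CPM in PD, and its median per nucleus was 8 UMIs in CT (4 to 33) and 6 UMIs in PD (4 to 25).

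PD members were next compared with CT members gene by gene on UMIs summed over the nuclei of a library. With 100 or more UMIs over both libraries, 6715 genes were measured. Of these, 297 (4.42%) were 1.5-fold or more higher in PD and 358 (5.33%) were 1.5-fold or more lower, around a median log2 ratio of 0.01. Joint clustering of the 311 members gave 5 clusters, and 89.4% of nuclei lay in the library that held most of their cluster, where clusters mixed in the members' own proportion would give 70.1%. A cluster held 80 CT nuclei and 0 PD nuclei, another 2 CT and 56 PD nuclei, and a mixed one 24 CT and 30 PD nuclei. The genes named below are the 12 highest and 12 lowest in PD by the interval bound nearest to no change.

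**Figure D2:**
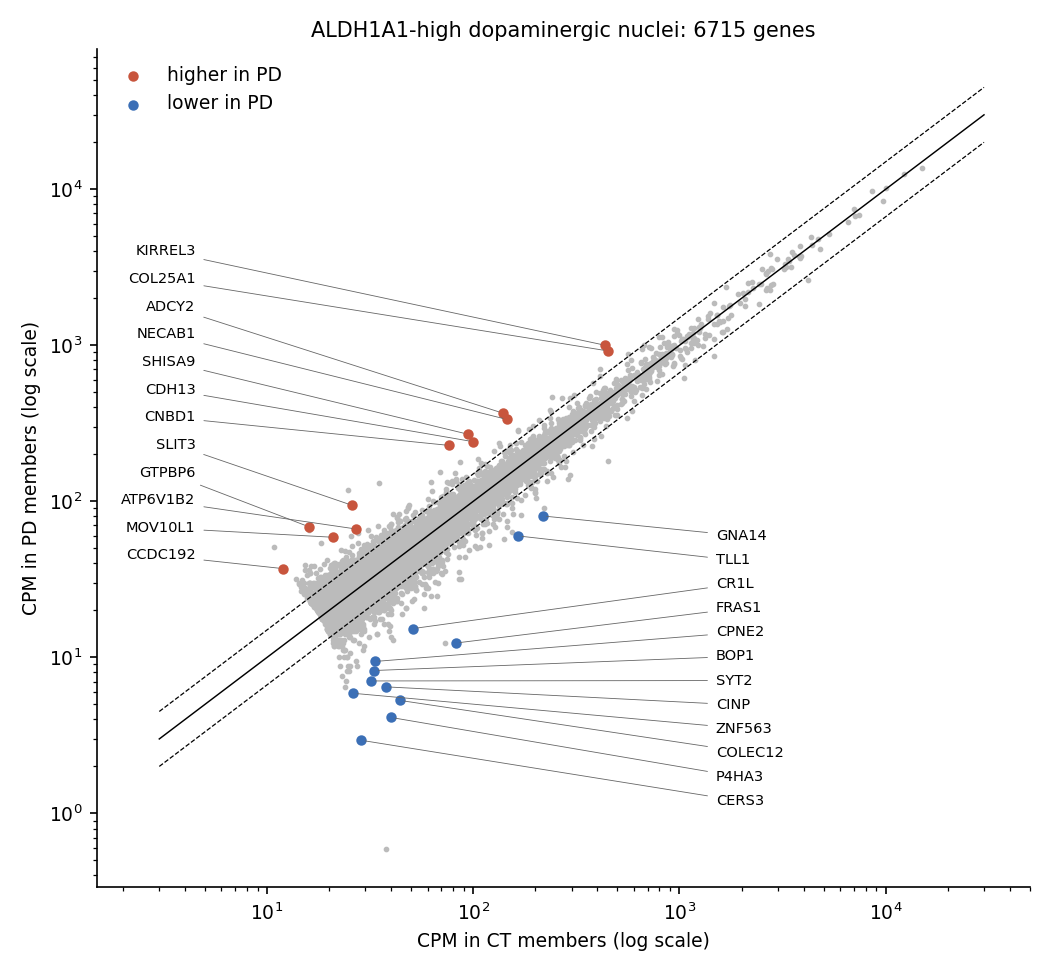
CPM of 6715 genes in CT members (x axis, log scale) and PD members (y axis, log scale); grey points are genes, the solid line is equality and the dashed lines are 1.5-fold. Named genes higher in PD (red) run from CCDC192 at 37.1 CPM to KIRREL3 at 1001 CPM in PD, and named genes lower in PD (blue) include GNA14 and TLL1 as the most abundant in CT.

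The named genes with the most UMIs among those higher in PD were KIRREL3 and COL25A1. KIRREL3, an immunoglobulin-superfamily adhesion protein of synapses, had a median of 6 UMIs per nucleus in CT (0 to 43) and 14 in PD (0 to 65). It was at 435 CPM in CT and 1001 CPM in PD, a ratio of 2.30 (2.15 to 2.47), and 98.9% of PD members held a UMI against 89.9% of CT members. COL25A1, a transmembrane collagen first isolated from amyloid plaques, was at 449 CPM and 921 CPM (ratio 2.05, 1.91 to 2.20), with medians of 6 and 13 UMIs. ADCY2, an adenylyl cyclase, was at 139 CPM and 368 CPM (ratio 2.65, 2.35 to 2.98). SHISA9, an auxiliary subunit of AMPA receptors, was at 94.0 CPM and 269 CPM (ratio 2.87, 2.49 to 3.30). NECAB1, a neuronal calcium-binding protein, was at 146 CPM and 335 CPM (ratio 2.30, 2.04 to 2.59). For ADCY2 the median was 2 UMIs in CT and 7 in PD, for SHISA9 1 and 4, and for NECAB1 2 and 5, and the ranges over nuclei overlapped for each.

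Other named genes rested on fewer nuclei. SLIT3, a secreted guidance ligand for ROBO receptors, was at 25.9 CPM in CT and 94.1 CPM in PD (ratio 3.63, 2.80 to 4.72), with a median of 0 UMIs in both libraries. CDH13, a cadherin without a cytoplasmic domain, was at 99.8 CPM and 241 CPM, and 5 nuclei carried 41.2% of its PD UMIs. CNBD1 was at 76.2 CPM and 228 CPM, and 5 nuclei carried 42.4% of its CT UMIs. GTPBP6, a mitochondrial GTP-binding protein, was at 15.9 CPM and 68.8 CPM (ratio 4.33, 3.15 to 6.02) and had a UMI in 23.4% of CT and 71.0% of PD members. ATP6V1B2, a subunit of the proton pump that acidifies lysosomes and synaptic vesicles, was at 27.0 CPM and 66.5 CPM (ratio 2.46, 1.87 to 3.25). MOV10L1 and CCDC192 completed the set, with ratios of 2.81 and 3.11.

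The genes lowest in PD members were mostly of low abundance. P4HA3, a collagen prolyl hydroxylase subunit, had 151 UMIs in CT and 7 in PD, a ratio of 0.103 (0.0407 to 0.218). COLEC12, a scavenger receptor, had 167 and 9 UMIs (ratio 0.120), and FRAS1, an extracellular matrix protein, had 311 and 21 (ratio 0.150). CERS3, a ceramide synthase, had 108 and 5 (ratio 0.103), and CINP, a cell cycle and genome maintenance protein, had 142 and 11 (ratio 0.172). SYT2, a fast calcium sensor of synaptic vesicles, had 121 UMIs in CT, seen in 32.1% of nuclei, and 12 UMIs in PD, seen in 11.8% (ratio 0.220, 0.111 to 0.399). For these 6 genes the median nucleus held 0 UMIs in both libraries.

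GNA14 and TLL1 were the named lower genes with the most UMIs. GNA14, a G protein alpha subunit of the Gq class, was at 217 CPM in CT and 80.6 CPM in PD, a ratio of 0.372 (0.308 to 0.446), with a UMI in 71.6% and 46.2% of nuclei. TLL1, a tolloid-like metalloprotease, was at 165 CPM and 60.01 CPM, a ratio of 0.364 (0.292 to 0.449), with a UMI in 72.5% and 48.4% of nuclei. The medians were 2 UMIs in CT and 0 in PD for both genes. ZNF563, BOP1, CR1L and CPNE2 had ratios of 0.225, 0.249, 0.299 and 0.282.

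The named genes were then read in ALDH1A1-low dopaminergic nuclei and in the other nuclei of the same libraries. All 12 genes higher in PD members were also higher by 1.5-fold or more in ALDH1A1-low nuclei, and 9 of 12 were so in the other nuclei. Over the 6715 genes measured in members, those shares were 4.29% and 5.96%. All 12 genes lower in PD members were lower by 1.5-fold or more in ALDH1A1-low nuclei, and 7 of 12 were so in the other nuclei, against 5.87% and 4.51% of the 6715 genes. These nuclei share the members' libraries. BOP1 had a ratio of 0.200 in the other nuclei, CINP 0.227, CR1L 0.143 and GTPBP6 2.74, so these 4 genes differed between the libraries outside dopaminergic nuclei too. KIRREL3 had a ratio of 1.84 in ALDH1A1-low nuclei and 0.935 in the other nuclei, and ADCY2 had 1.80 and 1.07. FRAS1 and TLL1 went the other way in the other nuclei, with ratios of 2.33 and 3.27 against 0.150 and 0.364 in members. SYT2 was at 0.885 in the other nuclei, with an interval from 0.710 to 1.10.

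**Figure D3:**
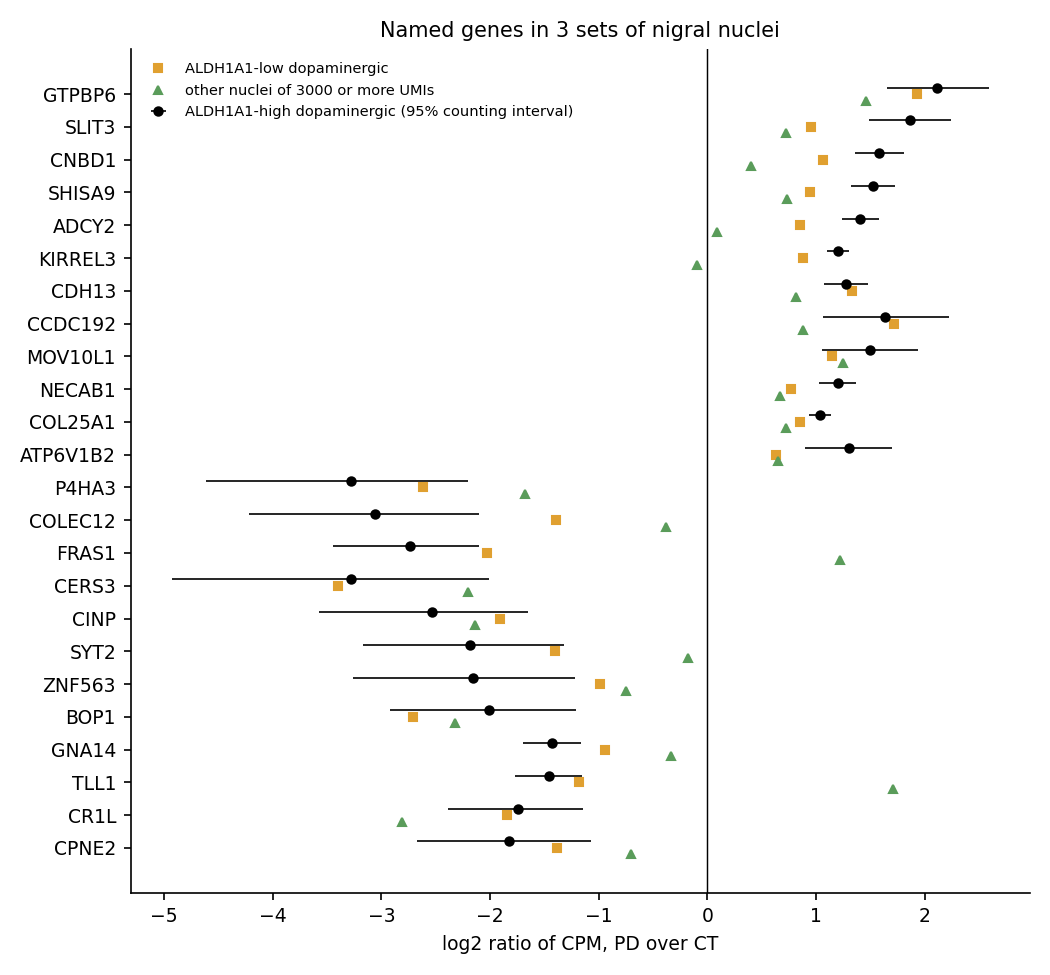
Log2 ratio of CPM, PD over CT (x axis), for the 24 named genes (y axis) in ALDH1A1-high members (black, with 95% counting interval), ALDH1A1-low dopaminergic nuclei (orange squares) and other nuclei (green triangles). Black and orange symbols lie on the same side of 0 for all 24 genes, while FRAS1, TLL1 and KIRREL3 change side in the other nuclei.

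Genes of dopamine handling were close between the libraries, with 2 exceptions. Of 14 listed genes 8 were measured outside the rule genes, 5 were higher and 3 lower in PD, and their median log2 ratio was 0.05 against 0.01 over all genes. None was 1.5-fold higher and 2 were 1.5-fold lower, against 4.42% and 5.33% of all genes. TH had a ratio of 0.885 (0.676 to 1.15), DDC, which makes dopamine from L-DOPA, 1.11 (1.002 to 1.23), and the autoreceptor DRD2 1.05 (0.941 to 1.17). The 2 lower genes were PTS and QDPR. PTS, an enzyme that makes the tetrahydrobiopterin cofactor of TH, was at 28.1 CPM in CT and 16.5 CPM in PD (ratio 0.587, 0.373 to 0.898), with ratios of 1.01 in ALDH1A1-low nuclei and 0.637 in the other nuclei. QDPR, which regenerates that cofactor, was at 131 CPM and 86.5 CPM (ratio 0.661, 0.546 to 0.797), and its ratio was 0.705 in the other nuclei. GCH1, the first enzyme of the cofactor's synthesis, was at 57.2 CPM and 61.2 CPM (ratio 1.07, 0.839 to 1.36). MAOB, a monoamine oxidase better known from glia, had too few UMIs to be measured, with 28 in CT and 48 in PD (7.41 CPM and 28.2 CPM).

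Of the 13 listed transcription factors and receptors of dopaminergic identity 8 were measured, 5 higher and 3 lower in PD (median log2 0.10). Of these, 1 was 1.5-fold lower and none 1.5-fold higher, against 5.33% and 4.42% of all genes. The median of the list was -0.049 in nuclei thinned to 3000 UMIs. The lower gene was NR4A2, the nuclear receptor NURR1 that maintains dopaminergic identity. It was at 73.8 CPM in CT and 47.7 CPM in PD, a ratio of 0.645 (0.498 to 0.829), with a UMI in 66.5% and 47.3% of nuclei. Its ratio was 0.675 in ALDH1A1-low nuclei. SOX6 was at 366 CPM and 392 CPM (ratio 1.07, 0.974 to 1.17). LMX1A, a specification factor below the minimum for measurement, had 37 UMIs in CT and 60 in PD, or 9.79 CPM and 35.3 CPM.

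Of the 31 listed Parkinson's disease genes 19 were measured, 13 higher and 6 lower in PD, and none was 1.5-fold apart (median log2 0.09). Of the 28 listed poly(ADP-ribose) and NAD genes 14 were measured, 4 higher and 10 lower, and none was 1.5-fold apart (median log2 -0.07). Over all genes measured, 4.42% were 1.5-fold higher and 5.33% were 1.5-fold lower. PARP1, the main poly(ADP-ribose) polymerase, had 84 UMIs in CT and 54 in PD (ratio 1.43, 0.996 to 2.04). SARM1, an NAD hydrolase of axon degeneration, was at 45.8 CPM and 31.2 CPM (ratio 0.681, 0.491 to 0.931).

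Lists of cell maintenance had medians near that of all genes, heat shock and cholesterol genes being farthest from it. Of 19 measured nuclear genes of oxidative phosphorylation, 12 were higher and 7 lower in PD (median log2 0.10), and of 18 measured proteasome genes, 13 were higher and 5 lower (median 0.15). Of 13 measured heat shock and unfolded protein genes, 9 were higher and 4 lower (median 0.25, and 0.044 with a gene minimum of 200 UMIs). Among them 1 passed 1.5-fold, against 4.42% of all genes. It was HSPD1, the mitochondrial chaperonin, at 34.7 CPM in CT and 55.9 CPM in PD (ratio 1.61, 1.22 to 2.12). Of 12 measured cholesterol synthesis genes, 3 were higher and 9 lower (median -0.18), and 3 were 1.5-fold lower, against 5.33% of all genes. Among these, HMGCS1, which makes HMG-CoA, had a ratio of 0.498 (0.323 to 0.744), and MSMO1, a sterol demethylation enzyme, had 0.586 (0.389 to 0.861). HMGCS1 had a ratio of 1.02 in ALDH1A1-low nuclei and 1.58 in the other nuclei. The whole cholesterol list had a median of -0.21 in ALDH1A1-low nuclei (10 measured, 2 higher), near that of members. In the other nuclei its median was 0.19 (12 measured, 10 higher). The heat shock list had medians of 0.11 in ALDH1A1-low nuclei and 0.31 in the other nuclei. The lysosome list (16 measured, median 0.03), the oxidative stress list (9 measured, 5 higher, median 0.10, but -0.11 with a gene minimum of 200 UMIs), the iron list (10 measured, 5 higher, median -0.001) and the aldehyde list (6 measured, 2 higher, median -0.07) lay near the median of all genes.

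Genes of excitability and synapses were higher and lower in PD in mixed order. Of 19 measured potassium channel genes, 4 were 1.5-fold higher in PD and 1 was 1.5-fold lower, against 4.42% and 5.33% of all genes, with a median log2 ratio of 0.17 that was 0.00039 in thinned nuclei. KCNJ3, which pairs with KCNJ6 in GIRK channels, was at 136 CPM in CT and 227 CPM in PD (ratio 1.67, 1.46 to 1.91), and KCNB2, a delayed rectifier subunit, had a ratio of 1.79 (1.54 to 2.07). KCNT2, a sodium-activated channel, was at 140 CPM and 57.1 CPM (ratio 0.407, 0.324 to 0.506). KCNJ3 and KCNB2 were also higher in the other nuclei, with ratios of 1.48 and 2.95. Of 16 measured calcium and sodium channel genes of pacemaking, 8 were higher and 8 lower, none by 1.5-fold. CACNB2, an auxiliary calcium channel subunit, was at 1064 CPM and 752 CPM (ratio 0.707, 0.663 to 0.753), and CACNA1D, the Cav1.3 pore of nigral pacemaking, had a ratio of 0.815 (0.766 to 0.866).

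Of 30 measured synaptic vesicle genes, 13 were higher and 17 lower (median log2 -0.09), 2 by 1.5-fold in each direction, shares near the 4.42% and 5.33% of all genes. The 2 higher were the synapsins SYN1 (ratio 1.73, 1.41 to 2.11) and SYN3 (1.96, 1.57 to 2.43), and the 2 lower were SYT2 and CPLX2, a complexin that clamps vesicle fusion, at 67.8 CPM in CT and 40.0 CPM in PD. Of 32 measured glutamate and GABA receptor genes, 12 were higher and 20 lower (median -0.11). Of these, 1 was 1.5-fold higher and 2 were 1.5-fold lower, shares near those of all genes. GRIN2A, an NMDA receptor subunit, was at 74.4 CPM and 134 CPM (ratio 1.80, 1.501 to 2.15). GRIK1, a kainate receptor subunit, was at 67.2 CPM and 30.01 CPM (ratio 0.446, 0.324 to 0.605), with a ratio of 1.67 in the other nuclei. GABRG3, a GABA-A receptor subunit, had a ratio of 0.636 (0.543 to 0.744), and of 0.997 in ALDH1A1-low nuclei. Of 20 measured axon guidance genes, 12 were higher and 8 lower (median 0.04). SLIT3 was the 1 gene 1.5-fold higher, and the netrin receptor UNC5D was the 1 gene 1.5-fold lower (ratio 0.621, 0.505 to 0.761), with ratios of 1.52 in ALDH1A1-low and 1.82 in the other nuclei. These shares of the list were near those of all genes.

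**Figure D4:**
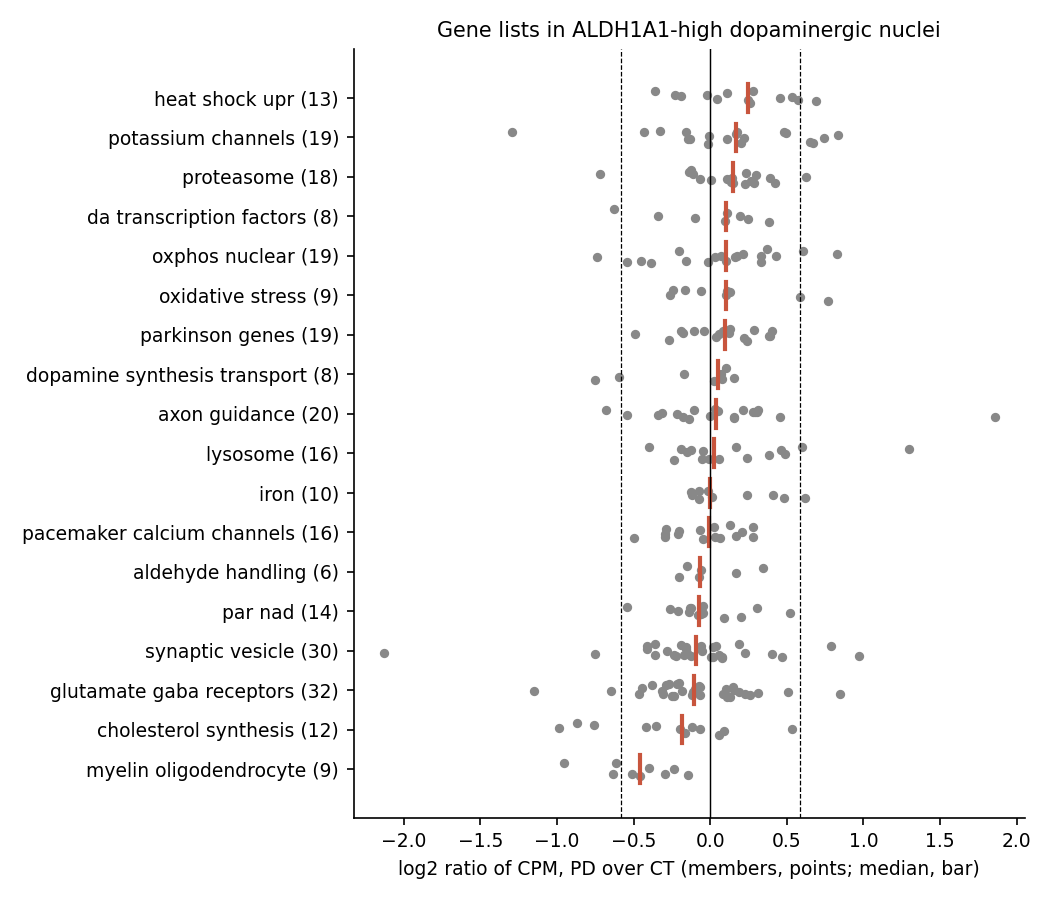
Log2 ratio of CPM, PD over CT, in members (x axis) for each measured gene (grey points) of the 18 lists with 6 or more measured genes (y axis, number measured in parentheses); red bars are list medians and dashed lines mark 1.5-fold. Medians run from -0.46 for the myelin and oligodendrocyte list to 0.25 for the heat shock list, and SYT2 and SLIT3 are the points farthest from 0.

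Summed myelin, microglial and astrocyte markers were lower in the members than in the other nuclei. Oligodendrocyte precursor markers were little lower, and vascular markers were higher. Some of these transcripts differed between libraries. The 14 myelin and oligodendrocyte markers summed to 788 CPM in CT members and 542 CPM in PD members, against 10374 CPM and 6185 CPM in the other nuclei. All 9 measured were lower in PD members (median log2 -0.46), MBP at 282 CPM and 181 CPM among them, and all 9 were lower in the other nuclei too. The 12 microglial markers summed to 69.9 CPM and 43.5 CPM, against 663 CPM and 411 CPM in the other nuclei. P2RY12 had no UMI in the members of either library. The 9 annotated astrocyte markers summed to 106 CPM and 97.7 CPM, against 508 CPM and 401 CPM. The 8 oligodendrocyte precursor markers summed to 531 CPM in CT and 498 CPM in PD members, against 686 CPM and 528 CPM in the other nuclei. The part of such RNA in the gene differences above was not tested. EBF1, a transcription factor placed on the vascular list, was at 449 CPM in CT members and 180 CPM in PD members (ratio 0.401). Its ratio was 0.451 in ALDH1A1-low nuclei and 2.46 in the other nuclei. The 11 vascular markers summed to 487 CPM in CT and 225 CPM in PD members, most of it EBF1. In the other nuclei they summed to 142 CPM and 191 CPM. The other measured one, ABCB1, a drug efflux pump, had a ratio of 1.29 (0.893 to 1.85). Among the rest, 2 genes in CT (CLDN5 and DCN) and 3 in PD (these and PDGFRB) had no UMI.

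Immune genes had few UMIs in the members. Of 28 annotated interferon-response genes 1 was measured, DDX58, with a ratio of 1.10 (0.848 to 1.42). Of 15 annotated genes of MHC class I presentation 2 were measured, CANX at 1.31 and PDIA3 at 0.967. Below the minimum, HLA-E had 18 UMIs in CT and 27 in PD (4.76 CPM and 15.9 CPM), and NLRC5, a transactivator of class I genes, had 5 and 16 UMIs. SLC17A8, the vesicular glutamate transporter VGLUT3, had 5 UMIs over 5 CT nuclei and 27 UMIs over 12 PD nuclei, of which 5 nuclei carried 74.1%. Of the immediate-early genes, FOS had 39 of 3777936 member UMIs in CT and 5 of 1699668 in PD. The 2 measured genes, BDNF and HOMER1, had ratios of 1.08 and 1.198.

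Mitochondrially encoded RNA was 3.997 times as high in PD members (3.49 to 4.58), at 89.2 CPM in CT and 357 CPM in PD, and this rested on single nuclei. A single PD nucleus held 414 of the 606 mitochondrial UMIs of PD members, and a single CT nucleus held 82 of 337. Without these 2 nuclei the sums were 68.1 CPM and 115 CPM, a ratio of 1.69 (1.39 to 2.05), and the median nucleus held 1 UMI in both libraries. The same RNA was at 88.7 CPM in CT and 91.3 CPM in PD in ALDH1A1-low nuclei, and at 116 CPM and 413 CPM in the other nuclei. Over all barcodes it made up 0.0178% of UMIs in CT and 0.0444% in PD. Its part in the gene differences was not tested.

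The members also differed from ALDH1A1-low dopaminergic nuclei within each library on genes that did not define them. Among 6326 genes, 32 (0.506%) were 1.5-fold or more higher in members in both libraries, and 99 (1.56%) were lower in both. These nuclei were divided on ALDH1A1 within a library, so the values are a description. CNTN5, a contactin adhesion protein, was at 291 CPM in CT members against 96.1 CPM in CT ALDH1A1-low nuclei, and at 345 CPM against 120.0 CPM in PD. OPCML, another cell adhesion protein with a GPI anchor, was at 1700 CPM against 844 CPM in CT and 1269 CPM against 573 CPM in PD. TGFBR2, a TGF-beta receptor, was 2.39 times higher in members in CT (1.90 to 3.04) and 3.30 times in PD (2.31 to 4.80). PCDH17, F5, ZFPM2, OSBPL3 and KCNJ3 were the next highest, between 1.79 and 3.01 times over both libraries.

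The 8 genes lowest in members included CALCR, PDE1C and IL1RAPL2. CALCR, the calcitonin receptor, was at 1.06 CPM (4 UMIs) in CT members and 3.53 CPM (6 UMIs) in PD members. In ALDH1A1-low nuclei it was at 14.8 CPM (26 UMIs) in CT and 148 CPM (336 UMIs) in PD. PDE1C, a calcium-stimulated phosphodiesterase, was at 3.97 CPM against 38.7 CPM in CT and 6.47 CPM against 72.8 CPM in PD. IL1RAPL2 was at 73.1 CPM against 436 CPM in CT and 57.7 CPM against 453 CPM in PD. The cadherins CDH4 and CDH6 were 0.176 and 0.129 of the ALDH1A1-low level in CT and 0.223 and 0.171 in PD. GRIN2A was 0.253 of that level in CT and 0.355 in PD. VWA5B1 and TOX were also among the 8 lowest. LMX1A was at 9.79 CPM against 73.4 CPM in CT and 35.3 CPM against 102 CPM in PD.

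Among themselves the members varied most in a few adhesion genes, ranked by the smaller of the Fano factors (variance over mean) of the libraries. After thinning to 3000 UMIs per nucleus, 1730 genes had a mean of 0.3 UMIs or more in both libraries, with median Fano factors of 1.08 in CT and 1.09 in PD. The highest were TENM2, a teneurin of synaptic adhesion (5.54 in CT, 4.55 in PD), LSAMP (3.57 and 3.75), OPCML (4.03 and 3.57), CNTNAP2 (3.21 and 4.35) and CADM1 (3.21 and 3.25). LSAMP, OPCML and CNTNAP2 encode neuronal cell adhesion proteins. SLC6A3, a gene of the rule, had 1.29 and 1.499. TH had 0.988 and 0.924, but its means of 0.174 and 0.0860 UMIs lay below the 0.3 minimum. Its factors therefore cannot be set beside those of the ranked genes.

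LSAMP and OPCML were opposed over nuclei. Pearson's r between their thinned UMIs was -0.46 over 218 CT members and -0.60 over 93 PD members, where the nuclei of a library share its preparation. LSAMP was opposed in the same way to CNTNAP2 (-0.40 and -0.63) and GPC5 (-0.37 and -0.52), and ran together with CADM1 (0.25 and 0.50) and GALNT13 (0.24 and 0.50). TENM2 was opposed to RYR3, an intracellular calcium release channel (-0.54 and -0.49). EBF1 ran with CDH13 (0.43 and 0.49). ALDH1A1 was nearly unrelated to LSAMP in CT (-0.008) and weakly opposed in PD (-0.20).

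**Figure D5:**
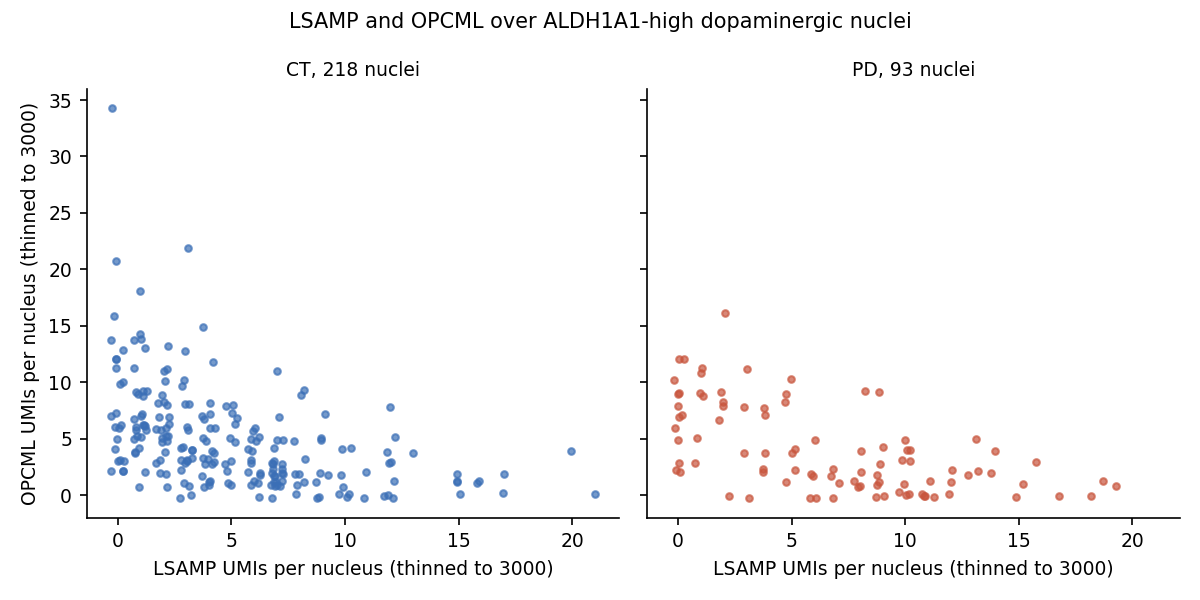
LSAMP UMIs (x axis) and OPCML UMIs (y axis) per member nucleus, each thinned to 3000 UMIs and moved by up to 0.3 for visibility, in CT (left, 218 nuclei) and PD (right, 93 nuclei). Points lie both along the axes and between them, and r was -0.46 in CT and -0.60 in PD.

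Members were divided at an LSAMP share of 50% of the LSAMP and OPCML UMIs, a division made after these values were seen. In CT, 55 nuclei lay below 20%, 48 between 40% and 60%, and 33 above 80%. In PD those numbers were 20, 13 and 34. The sides are ranges of this share, and no cell type is assigned to them. The LSAMP side held 108 of 218 CT members (49.5%, 42.7 to 56.4) and 60 of 93 PD members (64.5%, 53.9 to 74.2). The ratio was 1.30, with an interval from 0.934 to 1.80. That interval is too wide for shares this large, so its reach past 1 does not show that counting alone covers the difference. Median depths were 16235.5 and 16074.5 UMIs on the LSAMP and OPCML sides in CT, and 18499 and 16871 in PD.

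The named genes were chosen for their difference over these same nuclei, so their values on each side are a description. KIRREL3 had ratios of 2.04 (1.89 to 2.21) on the LSAMP side and 1.99 (1.72 to 2.29) on the OPCML side. SLIT3 and CNBD1 were the 2 named genes whose ratio was higher in PD on the LSAMP side and lower on the OPCML side. SLIT3 was at 43.0 CPM in CT and 141 CPM in PD on the LSAMP side (ratio 3.27, 2.48 to 4.34), and had 18 UMIs in CT and 2 in PD on the OPCML side (0.370, 0.0416 to 1.54). CNBD1 had ratios of 3.12 (2.61 to 3.73) and 0.687 (0.396 to 1.13). On the OPCML side the counting intervals of both genes included no change, so a lower level in PD there is not shown. A single CT nucleus held 56 of the 288 CNBD1 UMIs of CT members. The difference between the sides was not tested. EBF1 was lower in PD on both, at ratios of 0.390 and 0.338.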

How the data were processed

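Nuclei of 3 brain regions were sequenced with a 10x 3′ v3 kit, and 2 nigral matrices were used. Per the file headers the authors deposited unnormalized UMI counts per gene and barcode from Cell Ranger 7.0.1. The annotation release is not given in the sources used here. The group of a matrix is known from its file name. Of 22316 genes, 16297 had a symbol.

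Members and gene lists were chosen with earlier results of these data known. Counts were summed over members in each library and divided by the members' total (CPM). Ratios carry exact conditional binomial intervals, and log2 ratios used 0.5 UMI added to each count. For ratios of shares of nuclei, such intervals are too wide. A gene counted as measured had 100 or more member UMIs. High against low used genes of 200 or more UMIs over both kinds of nuclei. Genes were named by the interval bound nearest to 1 (12 in each direction, 8 for members against ALDH1A1-low nuclei). This ranking left out the genes of the rule, those without a proper symbol, genes of mitochondria, ribosomes, hemoglobin or the sex chromosomes, and other cell types' markers. Members of the gene lists were named beside their list's count, some after their values were seen. Doublets were scored with Scrublet (expected rate 0.06) and kept. No correction for free RNA was made. Clustering used scanpy 1.11.5 (1500 genes, 20 components, 15 neighbours, resolution 0.6) and TMM used edgeR 4.0.16. Interval and fold scripts were tested on simulated sums with counting error alone. The simulation held no spread between nuclei, so it does not cover genes that vary over nuclei. No test between groups was made, so there are no p-values. Some members of the gene lists are not reported here.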

Additional observations from a re-analysis of the deposited data

How the results depend on the processing

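The ratio of the members' share among dopaminergic nuclei stayed between 0.476 and 0.661, among barcodes of 3000 or more UMIs between 0.434 and 0.607, and among all barcodes between 0.383 and 0.535, under 7 planned settings each. The highest value of each came from nuclei thinned to 3000 UMIs, where the rule was changed. There a member needed 2 or more UMIs of SLC6A3 and SLC18A2 together and 1 or more of ALDH1A1. Counts of genes 1.5-fold higher and lower, 297 and 358 of 6715, became 614 and 641 of 9061 with a gene minimum of 50 UMIs. They were 120 and 170 of 4422 with 200 UMIs, and 43 and 80 of 6715 at 2-fold. With nuclei thinned to 3000 UMIs they were 50 and 82, where 1785 genes reach the minimum. With 8 or more ALDH1A1 UMIs per nucleus, 230 of 4601 measured genes were lower, and 219 higher. Of the list medians (log2), with 200 UMIs heat shock was 0.044, lysosome 0.24 and oxidative stress -0.11. With 8 or more ALDH1A1 UMIs, heat shock was 0.10, cholesterol synthesis -0.46, oxidative stress -0.058 and myelin -0.77. With thinned nuclei, dopaminergic transcription factors were -0.049, calcium and pacemaker channels -0.13, potassium channels 0.00039, synaptic vesicle -0.0025 and receptors -0.051. The cause was not tested. Medians within 0.05 of 0 (dopamine handling, lysosome, iron, pacemaker) changed sign under some settings. TMM moved PD against CT by 0.03 (log2). Of 240 values of named genes under alternatives, 238 kept their direction and 31 moved by more than the reach of their counting interval. Among planned settings, thinned nuclei moved COLEC12 from -2.99 to -1.69 (log2), FRAS1 from -2.70 to -1.54, ZNF563 from -2.09 to -0.84, BOP1 from -1.96 to -2.68, CPNE2 from -1.79 to -1.16, MOV10L1 from 1.49 to 2.35 and ATP6V1B2 from 1.30 to 2.003. With 8 or more ALDH1A1 UMIs BOP1 was -1.25 and CR1L moved from -1.72 to -2.55. The exceptions in direction were SLIT3 (-1.15) and CNBD1 (-0.51) on the OPCML side, a setting chosen after seeing the data. The mitochondrial ratio of 3.997 became 1.69 without the nucleus richest in such UMIs in each library, also chosen after seeing the data. No paired analysis was possible because each nigral group is 1 matrix whose barcodes carry no sample number. For the same reason no replicate could be left out. Counts limit genes under 100 UMIs most, and PD members, at 1699668 UMIs, more than CT members, at 3777936.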
